A study of Mus musculus with 12 samples.

Results

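The retinoid transport and metabolism genes described here are 9 genes chosen by symbol from a table of 55487 genes: the carriers Rbp4, Crabp1 and Crabp2, the uptake receptor Stra6, the enzymes Dhrs3 and Aldh1a1, and the retinoic acid receptors Rara, Rarb and Rarg. Each symbol had 1 row in the table. The cells were 3T3-L1, mouse embryonic fibroblasts committed to the fat lineage, which become adipocytes after hormonal induction. The shScram line carried a scrambled control hairpin and the shFto line a hairpin against Fto, an enzyme that removes N6-methyladenosine from RNA. Both lines were made with a lentiviral U6 hairpin vector and selected in puromycin. The study used 2 Fto hairpins for its lines, the labels do not say which of them these libraries carry, and whether a line is 1 clone is not stated. Each line was collected as preadipocytes (Pre), at mitotic clonal expansion (MCE), when induced cells divide, and after differentiation (Diff), with 2 libraries in each of 6 groups. The labels do not say that the libraries of a group came from separate cultures, so the tests measure the spread between these libraries, which may be technical.

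Retinol travels in blood bound to RBP4 and enters cells through STRA6. Inside the cell, alcohol and retinol dehydrogenases oxidise it to retinaldehyde, DHRS3 reduces retinaldehyde back to retinol, and ALDH1A enzymes oxidise retinaldehyde irreversibly to retinoic acid. CRABP2 delivers retinoic acid to the nuclear receptors RARα, RARβ and RARγ, FABP5 can carry it to PPARδ instead, and CYP26 enzymes break it down. In 3T3-L1 cells, retinoic acid given early is known to block adipogenesis, while mature adipocytes store retinol and secrete RBP4.

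The receptor Rarb is a textbook retinoic acid target because of an element in its promoter, a pair of half-sites in the same orientation spaced by 5 bases. The promoter windows of 250 bases before each annotated start were searched for such pairs (the half-site AGGTCA and its variants AGTTCA and also GGGTCA or else GGTTCA, on both strands, spaced by 1, 2 or 5 bases, where each pair also counts as single half-sites). Windows were found for 8 of the 9 members. Among the members' 19 windows, 1 held a pair, a pair spaced by 5 in Rarb. Of all 32851 windows, 0.0883% held a pair spaced by 5, 0.164% a pair spaced by 1 and 0.174% a pair spaced by 2. The windows of Rarb (GRCm38.p6, chr14:16575477-16575726, minus strand) and of Dhrs3 (chr4:144892577-144892826, plus strand) are shown from RefSeq, the first because it holds the element and the second because Dhrs3 had the largest difference between the lines among the members tested. Capitals mark the pair, which lies from 53 to 37 bases before the start, at 16575513 to 16575529 on chromosome 14. The Dhrs3 window held no pair at these spacings, which says only that these letters are not in it.
Rarb: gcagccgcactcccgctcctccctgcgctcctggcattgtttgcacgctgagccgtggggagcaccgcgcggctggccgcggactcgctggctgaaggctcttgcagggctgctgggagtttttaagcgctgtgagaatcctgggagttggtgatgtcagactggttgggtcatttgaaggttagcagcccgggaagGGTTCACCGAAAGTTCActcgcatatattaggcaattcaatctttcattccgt
Dhrs3: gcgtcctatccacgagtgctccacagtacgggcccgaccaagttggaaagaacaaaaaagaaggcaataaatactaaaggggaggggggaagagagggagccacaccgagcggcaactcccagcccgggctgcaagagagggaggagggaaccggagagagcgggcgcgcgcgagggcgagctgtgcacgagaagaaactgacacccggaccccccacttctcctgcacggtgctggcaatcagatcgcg

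Values are TPM, a share of all transcripts corrected for transcript length, so that levels of different genes can be set side by side. Differences were tested by limma on log2(TPM + 1), a scale that compresses changes at low TPM, with p-values adjusted over the 15968 genes that reached 1 TPM in 2 libraries or more. Fto held 52.7 to 73.5 TPM in the shScram libraries and 5.51 to 7.47 TPM in the shFto libraries (log2 difference of -3.09, p = 0.00926, exact permutation test within stages, two-sided, the smallest p that this design allows). The treatment entry of shScram Diff replicate 1 names the knockdown, its title names shScram, and its Fto level of 73.5 TPM lay with the shScram libraries. The 2 shScram Pre libraries stood apart, with a correlation of 0.939 across genes against 0.990 to 0.993 within the other groups. Differences from fits without 1 library are given without a p-value, since the group left with 1 library adds nothing to the estimated spread. The 10 adipocyte markers summed to 138 to 196 TPM in shScram and 277 to 308 TPM in shFto preadipocytes, to 412 to 417 and 293 to 303 TPM at MCE, and to 1633 to 1649 and 444 to 480 TPM at Diff. The 8 fibroblast markers summed to 6933 to 12515 TPM in every library. Leukocyte markers reached a sum of 4.06 TPM, endothelial markers 1.15 TPM and hepatocyte markers 0.271 TPM, with Adgre1, Kdr and Ttr listed at 0 in every library.

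Among the 9 members, the receptors Rarg and Rara were the most abundant and Rarb, Crabp1 and Rbp4 were close to 0. By the mean over the 12 libraries the order was Rarg (95.7 TPM), Rara (65.7 TPM), Aldh1a1 (10.8 TPM), Dhrs3 (8.95 TPM), Crabp2 (3.04 TPM), Stra6 (1.29 TPM), Rarb (0.252 TPM), Crabp1 (0.0446 TPM) and Rbp4 (0.0282 TPM). For each pair of neighbours in this order the ranges over the 12 libraries overlapped. The 6 members from Rarg to Stra6 were tested, and Stra6 passed the filter only through 4 libraries, both at Diff and 1 at MCE in shScram and 1 at Diff in shFto. The other 3 members stayed under 1 TPM in every library and were not tested.

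**Figure D1:**
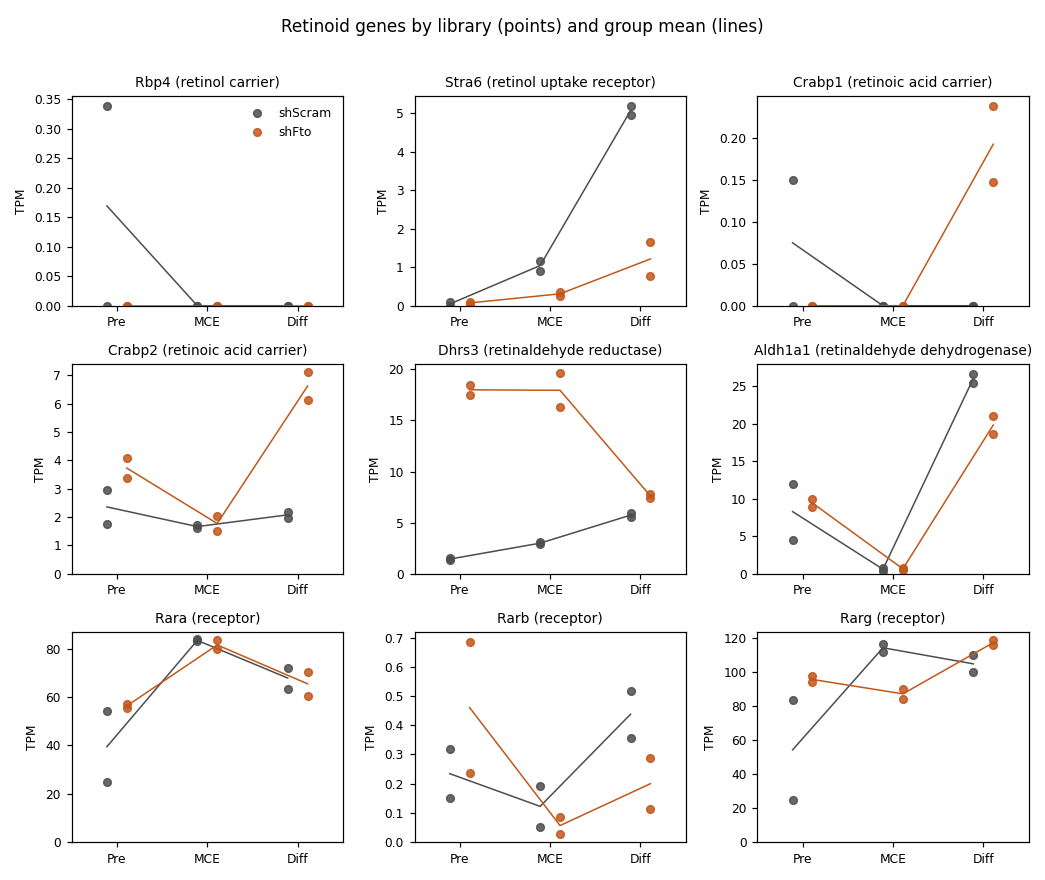
TPM of the 9 retinoid genes (vertical axes, 1 scale per gene, each from 0) at the 3 stages, with 1 point per library in shScram (grey) and shFto (orange) and lines through the means of the 2 libraries. The shFto points of Dhrs3 lie above the shScram points at each stage, and at Diff those of Crabp2 lie above and those of Stra6 below.

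The retinol carrier Rbp4 (ENSMUSG00000024990, chr19:38116629-38125281, minus strand) was listed at 0 in 11 libraries and at 0.338 TPM in shScram Pre replicate 2. No Rbp4 was thus listed at Diff in either line, although adiponectin (Adipoq), another product of adipocytes, held 77.2 and 72.4 TPM in shScram against 6.05 and 3.66 TPM in shFto at that stage. The retinoic acid carrier Crabp1 (ENSMUSG00000032291, chr9:54764748-54773110, plus strand) was listed at 0 in 9 libraries, at 0.150 TPM in shScram Pre replicate 2, and at 0.238 and 0.147 TPM in the shFto Diff libraries. Both shFto Diff libraries thus held Crabp1 and both shScram Diff libraries were at 0, but at levels where the number of reads behind a value is unknown. In a fit without the filter on low TPM, the Diff difference of Crabp1 was 0.25 (SE 0.06, limma adjusted p = 0.0404).

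Stra6, the receptor that takes up retinol from RBP4, rose with differentiation in shScram and was lower in shFto at Diff. Stra6 (ENSMUSG00000032327) lies on the plus strand at chr9:58063788-58153996 and overlaps Gm16131 on the same strand and Ccdc33 on the other. Its shScram libraries held 0 and 0.0896 TPM at Pre, 0.914 and 1.17 TPM at MCE, and 4.94 and 5.18 TPM at Diff. The shFto libraries held 0.107 and 0.0392 TPM at Pre, 0.250 and 0.368 TPM at MCE, and 0.777 and 1.65 TPM at Diff. The lines overlapped at Pre, and at MCE and Diff both shFto libraries were below both shScram libraries. At Diff the mean was 4.17-fold lower in shFto (log2 difference of -1.48, SE 0.20, limma adjusted p = 0.00116). The MCE difference of -0.64 missed the threshold (SE 0.20, limma adjusted p = 0.0626) and passed it in some alternatives, such as median-ratio scaling (limma adjusted p = 0.0397). From MCE to Diff, Stra6 rose by 1.57 in shScram (limma adjusted p = 0.00105) and by 0.73 in shFto (limma adjusted p = 0.0282), and these steps were not shown to differ between the lines (difference of -0.84, 95% interval from -1.50 to -0.19 before adjustment, limma adjusted p = 0.195). The shFto step was lost in 5 of 20 alternatives, down to 0.30 with quantile normalization.

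Adipocyte markers moved in the same direction as Stra6. Of the 10 markers, 9 were lower and 0 higher in shFto at Diff, where 9.31% and 11.9% of all tested genes were lower and higher. At MCE 7 were lower and 1 higher, Lpl, against 7.26% and 10.5% of all tested genes. Fewer adipocytes and less RNA per adipocyte cannot be told apart in bulk libraries, and the part of the markers' change in the Stra6 result was not tested. Without the shScram Diff library whose labels disagree, the Stra6 difference at Diff was -1.51. The genes whose log2(TPM + 1) followed Stra6 most closely over the 12 libraries, among genes with a mean TPM of at least 5, were Adamts12 (Pearson r = 0.962) and the adipocyte marker Cfd (r = 0.961). These libraries share their stage and line, so the correlations describe the pattern only.

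Crabp2, which carries retinoic acid to its receptors in the nucleus, moved the other way. Its gene (ENSMUSG00000004885) lies on the plus strand at chr3:87948666-87953376. The shScram libraries held 2.95 and 1.77 TPM at Pre, 1.71 and 1.62 TPM at MCE, and 1.98 and 2.18 TPM at Diff. The shFto libraries held 4.07 and 3.39 TPM at Pre, 1.51 and 2.04 TPM at MCE, and 7.12 and 6.13 TPM at Diff. The lines overlapped at MCE, and at Pre and Diff both shFto libraries were above both shScram libraries. At Diff the mean was 3.18-fold higher in shFto (log2 difference of 1.30, SE 0.20, limma adjusted p = 0.00216). The log2 difference was 1.26 without the library whose labels disagree. The Pre difference of 0.51 missed the threshold (limma adjusted p = 0.0852), and it was 0.77 without shScram Pre replicate 1 and 0.26 without replicate 2. The MCE difference was 0.05 (95% interval from -0.41 to 0.51, limma adjusted p = 0.909). From Pre to MCE, the Crabp2 step was -0.77 in shFto (limma adjusted p = 0.0199) and -0.31 in shScram (limma adjusted p = 0.247). From MCE to Diff, Crabp2 rose by 1.46 in shFto (limma adjusted p = 0.00119), against 0.21 in shScram (limma adjusted p = 0.490). The difference between these steps, 1.25 (SE 0.29), had a limma adjusted p of 0.0610. It passed the threshold with only the libraries of the contrast (limma adjusted p = 0.00964) and without trend (limma adjusted p = 0.0470).

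Dhrs3, which reduces retinaldehyde and so lowers the substrate for retinoic acid, had the largest difference between the lines. The gene (ENSMUSG00000066026) lies on the plus strand at chr4:144892827-144928209. In shScram it held 1.54 and 1.33 TPM at Pre, 3.10 and 2.89 TPM at MCE, and 5.93 and 5.54 TPM at Diff. In shFto it held 17.5 and 18.5 TPM at Pre, 19.6 and 16.3 TPM at MCE, and 7.84 and 7.38 TPM at Diff. Both shFto libraries were above both shScram libraries at each of the 3 stages. The mean was 12.5-fold higher at Pre (log2 difference of 2.96, SE 0.14, limma adjusted p = 1.50e-05) and 6.01-fold higher at MCE (2.24, SE 0.14, limma adjusted p = 2.50e-05). At Diff it was 1.33-fold higher, and that difference of 0.35 missed the threshold (95% interval from 0.03 to 0.68 before adjustment, limma adjusted p = 0.117). With only the 4 Pre libraries in the fit, the Pre difference missed the threshold too (limma adjusted p = 0.109).

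The lines approached each other from both sides. In shScram, Dhrs3 rose by 0.71 from Pre to MCE (limma adjusted p = 0.00492) and by 0.75 from MCE to Diff (limma adjusted p = 0.00605). In shFto the first step was 0.00 (95% interval from -0.33 to 0.32, limma adjusted p = 0.991) and from MCE to Diff Dhrs3 fell by 1.14 (SE 0.14, limma adjusted p = 7.45e-04). The knockdown effect was smaller at Diff than at MCE by -1.89 (SE 0.20, limma adjusted p = 0.00246), and by -1.85 without the library whose labels disagree. The difference between MCE and Pre, -0.72, missed the threshold (limma adjusted p = 0.0815). It was -0.78 without shScram Pre replicate 1 and -0.66 without replicate 2. At Pre, where Dhrs3 differed most, 2 of the 10 adipocyte markers, Lipe and Lpl, were higher in shFto and 0 lower by limma. Of all tested genes 15.9% were higher and 12.3% lower at Pre. The marker sums were 277 and 308 TPM in shFto against 196 and 138 TPM in shScram, most of it Lpl. Adipoq was listed at 0 in each Pre library. The part of the markers in the Dhrs3 result was not tested. By the same measure of likeness, the genes closest to Dhrs3 were Igfbp7 (r = 0.974) and Acvr1 (r = 0.966), and those closest to Crabp2 were Ms4a4d (r = 0.942) and Lgmn (r = 0.927).

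Aldh1a1, which makes retinoic acid from retinaldehyde, followed the stages in both lines and was called in no knockdown contrast. The gene (ENSMUSG00000053279) lies on the plus strand at chr19:20492715-20643465, with C730002L08Rik and Gm6684 on the other strand. Its shScram libraries held 12 and 4.55 TPM at Pre, 0.794 and 0.414 TPM at MCE, and 26.6 and 25.4 TPM at Diff. The shFto libraries held 9.93 and 8.90 TPM, 0.783 and 0.528 TPM, and 21.0 and 18.6 TPM at the same stages. In each line both MCE libraries were thus the lowest and both Diff libraries the highest, and at Diff both shFto libraries were below both shScram libraries. From Pre to MCE, Aldh1a1 fell by 2.42 in shScram (limma adjusted p = 7.58e-04) and by 2.66 in shFto (limma adjusted p = 4.83e-04). From MCE to Diff it rose by 4.08 (limma adjusted p = 1.20e-04) and by 3.65 (limma adjusted p = 1.69e-04), that is 43.0-fold and 30.2-fold in mean TPM. The knockdown effects were 0.29, 0.05 and -0.38 at the successive stages (SE 0.34 each, limma adjusted p = 0.523, 0.949 and 0.483). The shScram Pre libraries differed, and without replicate 1 of that group the Pre effect was 0.91, while without replicate 2 it was -0.32. The patterns closest to Aldh1a1 were those of Zfp420 (r = 0.977) and Dixdc1 (r = 0.972).

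The enzyme has a close paralog, Aldh1a7, and reads of the pair could be split between them by the counting, so the level of each is uncertain. Aldh1a7 held 13.0 and 10.8 TPM in shScram against 7.32 and 6.52 TPM in shFto at Pre, 5.98 and 5.13 against 1.45 and 1.82 TPM at MCE, and 45.7 and 56.1 against 45.5 and 38.4 TPM at Diff. It was lower in shFto at MCE (log2 difference of -1.32, SE 0.17, limma adjusted p = 0.00107) and at Pre (-0.70, limma adjusted p = 0.0195). The other ALDH1A enzymes were scarce, with Aldh1a2 listed at 0 in each library and Aldh1a3 at most at 0.406 TPM.

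Rara and Rarg, receptors that act with RXR partners at retinoic acid elements, were called in no knockdown contrast with all libraries. Rara (ENSMUSG00000037992) lies on the plus strand at chr11:98927818-98974942 and overlaps Gm22061 on the same strand. It held 24.7 and 54.1 TPM at Pre, 83.0 and 83.9 TPM at MCE, and 72.2 and 63.5 TPM at Diff in shScram. The shFto libraries held 55.5 and 57.1 TPM, 79.7 and 83.4 TPM, and 60.4 and 70.5 TPM. At Pre both shFto libraries were above both shScram libraries. The lines overlapped at MCE and Diff, where the knockdown effects were -0.03 and -0.05 (SE 0.29, limma adjusted p = 0.962 and 0.924), and the Pre effect was 0.61 (95% interval from -0.04 to 1.26, limma adjusted p = 0.133).

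Rarg (ENSMUSG00000001288) lies on the minus strand at chr15:102234938-102257517. In shScram it held 24.7 and 83.8 TPM at Pre, 112 and 117 TPM at MCE, and 110 and 100 TPM at Diff. In shFto it held 94.0 and 97.6 TPM, 90.4 and 84.2 TPM, and 119 and 116 TPM. Both shFto libraries were above both shScram libraries at Pre and Diff and below them at MCE. The knockdown effects were 1.05 at Pre (SE 0.42, limma adjusted p = 0.0882), -0.39 at MCE (limma adjusted p = 0.604) and 0.16 at Diff (limma adjusted p = 0.836).

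For both receptors the lowest of the 12 values was that of shScram Pre replicate 1. Without that library the Pre effect was 0.06 for Rara and 0.19 for Rarg, and the MCE effect of Rarg was still -0.39. Without shScram Pre replicate 2 instead, the Pre effects were 1.16 for Rara and 1.91 for Rarg. The rise from Pre to MCE in shScram was 1.17 for Rara (limma adjusted p = 0.0123, lost in 3 of 21 alternatives) and 1.31 for Rarg (limma adjusted p = 0.0364, lost in 12 of 21), and without replicate 1 it was 0.62 and 0.45. The ratio of Rarg to Rara in TPM was 1.000 in that library and from 1.01 to 1.96 in the others, with 1.13 and 1.01 in shFto and 1.35 and 1.39 in shScram at MCE. The genes closest in pattern were Rilpl2 (r = 0.991) and Crocc (r = 0.983) for Rara, and Erbb2 (r = 0.983) and 2410006H16Rik (r = 0.978) for Rarg.

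The third receptor, Rarb (ENSMUSG00000017491, chr14:16430839-16819156, minus strand), overlaps Gm48162 and Top2b on the other strand. It was above 0 in 12 libraries and reached 1 TPM in none of them. In shScram it held 0.150 and 0.318 TPM at Pre, 0.191 and 0.0524 TPM at MCE, and 0.358 and 0.518 TPM at Diff. In shFto it held 0.235 and 0.687 TPM, 0.0859 and 0.0256 TPM, and 0.288 and 0.111 TPM. At Diff both shFto libraries were below both shScram libraries, and in a fit without the filter the difference was -0.26 (SE 0.16, limma adjusted p = 0.369). Rarb was thus far below Rara and Rarg in each library, and it is the member with the element shown above.

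**Figure D2:**
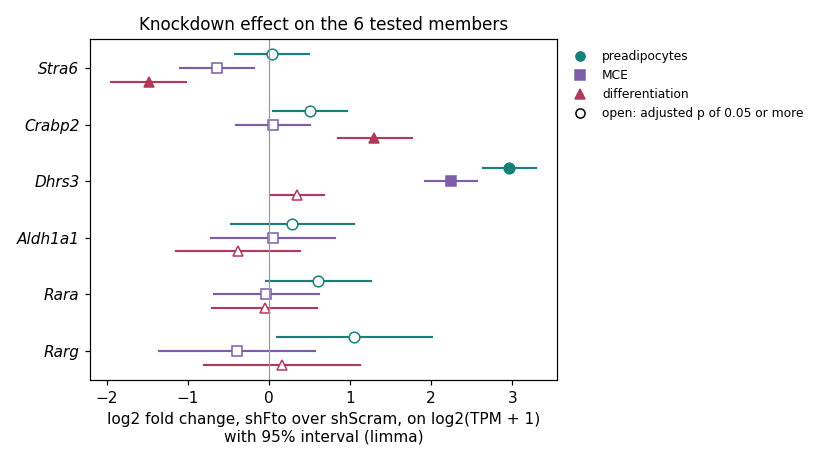
Log2 difference between shFto and shScram on the log2(TPM + 1) scale (horizontal axis) for the 6 tested retinoid genes at Pre (circles), MCE (squares) and Diff (triangles), with 95% intervals from limma over 12 libraries. Filled points have an adjusted p under 0.05, namely Dhrs3 at Pre (2.96) and MCE (2.24), and Crabp2 (1.30) and Stra6 (-1.48) at Diff.

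The number of members called is best read against the whole table. Of the 6 tested, 1 was called at Pre, 1 at MCE and 2 at Diff, where 28.2%, 17.8% and 21.2% of all tested genes were called. These shares were not stable, since leaving out 1 library moved the calls over all genes between 1169 and 10025 at Pre, 1215 and 6548 at MCE, and 1639 and 7290 at Diff. In the effect averaged over the stages 3 were called, Dhrs3 (1.85, SE 0.08, limma adjusted p = 8.94e-07), Crabp2 (0.62) and Stra6 (-0.69), against 42.8% of all genes. The stage steps called 5 members from Pre to MCE and 3 from MCE to Diff in shScram (39.1% and 25.2% of all genes), and 2 and 4 in shFto (28.7% and 26.7%). In the difference between the knockdown effects at Diff and MCE 1 member was called (2.49% of all genes), Dhrs3. In that between MCE and Pre limma called 0 members (5.11% of all genes), while Dhrs3, Rarg and Stra6 had an unadjusted p under 0.05 (0.00629, 0.0390 and 0.0434).

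The stage steps depend on a shift of all genes. The median over all tested genes was -0.17 from Pre to MCE and 0.23 from MCE to Diff in shScram, and -0.18 and 0.17 in shFto, and scaling between libraries shifted them by up to 0.19 upward and down to -0.22. The fall of Aldh1a1 at MCE, its rise at Diff, and the changes of Stra6 in shScram and of Crabp2 and Dhrs3 in shFto at Diff kept their direction and their call under median-ratio scaling and quantile normalization. The rise of Dhrs3 in shScram from MCE to Diff was 0.39 with quantile normalization (limma adjusted p = 0.120). The Crabp2 step from Pre to MCE in shFto lost its call under both, at -0.60 with median-ratio scaling (limma adjusted p = 0.0785) and -0.43 with quantile normalization (limma adjusted p = 0.249).

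Other genes of the retinoid pathway were taken as 64 genes in lists by role, of which 41 were tested. At Pre, 9 were higher in shFto and 7 lower, where 15.9% and 12.3% of all tested genes were higher and lower. At MCE 5 were higher and 8 lower (10.5% and 7.26% of all genes), and at Diff 7 were higher and 11 lower (11.9% and 9.31%). Averaged over the stages 10 were higher and 14 lower (24.5% and 18.3%). Some of the genes counted passed the filter only through the line where they were high, such as Ces1d in shScram and Rdh12 in shFto. The medians of the lists were 0.22, 0.03, -0.16 and 0.01, beside 0.08, 0.05, 0.03 and 0.06 over all genes. These counts moved with those over all genes in fits without 1 library. Such fits were planned, but which of them to give here was chosen after the data were seen. Each leaves 1 library in a group, so its calls do not measure the spread of that group. Without shScram Pre replicate 2, 19 were higher and 12 lower at Pre, where calls over all genes went from 4510 to 10025, and without replicate 1 there were 10 higher and 8 lower. Without replicate 1, 12 were higher and 9 lower at MCE and 12 and 13 at Diff, where calls over all genes went from 2838 to 6547 and from 3391 to 7290, and without replicate 2 the counts of pathway genes at these stages were the same. Without shScram Diff replicate 1, 1 was higher and 8 lower at Diff, where 1793 genes were called in all.

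By role, of the 5 tested genes of retinyl ester formation and breakdown, 2 were higher and 0 lower at Pre by limma (Lipe and Lpl, median over the list of 0.44), and 1 was higher and 1 lower at MCE (median of -0.21). At Diff 4 were lower and 0 higher by limma, with a median of -1.28, where 9.31% of all genes were lower and the median over all genes was 0.03. Those lower at Diff were Ces1d, Dgat1, Lipe and Pnpla2, of which Dgat1, Lipe and Pnpla2 also handle triglyceride. Ces1d reached 1 TPM only in shScram libraries (4.01 and 4.58 TPM at Diff), so it was testable only through the line where it was high. Adipocyte markers were lower in the same libraries, but Lipe and Lpl are in both lists, so the markers are not separate from this result. For the counts that follow, the shares of all tested genes higher and lower were 15.9% and 12.3% at Pre, 10.5% and 7.26% at MCE, and 11.9% and 9.31% at Diff. Among the 12 tested dehydrogenases and reductases, 3 were higher and 4 lower at Pre, 2 and 2 at MCE, and 2 and 3 at Diff. Of the 8 tested receptor partners and cofactors, 1 was higher and 1 lower at Pre, 0 and 1 at Diff, and 0 and 2 at MCE by limma, those at MCE being the corepressor Nrip1 (limma adjusted p = 0.00866) and the receptor partner Rxra (-1.43, limma adjusted p = 0.0128). Among the 7 tested retinoic acid responsive genes, 2 were higher and 0 lower at Pre, 0 and 1 at MCE, and 1 and 2 at Diff. Nrip1 is in this list and in that of the cofactors, and its calls at MCE and Diff are counted in each. Those genes not yet described whose difference at any stage was the largest, 8 in number, are given next.

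The dehydrogenases that make retinaldehyde differed between the lines in both directions. Rdh10, the main retinol dehydrogenase of the embryo (chr1:16105774-16133734), held 37.3 and 34.7 TPM in shScram against 111 and 117 TPM in shFto at MCE. It was 3.16-fold higher in shFto at that stage (log2 difference of 1.63, SE 0.12, limma adjusted p = 5.09e-05), and its effects were 0.40 at Pre (limma adjusted p = 0.0363) and -0.04 at Diff (limma adjusted p = 0.871). Rdh10 and Dhrs3, enzymes that work in opposite directions, were thus both higher in shFto at MCE. The alcohol dehydrogenase Adh1 (chr3:138260991-138290698, with Gm16559 on the other strand) held 16.7 and 14.0 TPM in shScram against 1.62 and 1.90 TPM in shFto at Diff (-2.56, SE 0.23, limma adjusted p = 1.06e-04). Adh7 (chr3:138217760-138233382, with 0610031O16Rik on the other strand) was lower in shFto at each stage, by -0.86, -1.38 and -1.55 (SE 0.14, limma adjusted p = 0.00464, 3.29e-04 and 1.32e-04). Rdh5 (chr10:128913593-128922888, overlapping Bloc1s1 on the same strand) was higher at Pre (1.61, limma adjusted p = 0.0120), with 5.33 and 13.9 TPM in shScram against 24.7 and 33.1 TPM in shFto. Its Pre difference was 0.99 without shScram Pre replicate 1 and 2.22 without replicate 2.

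Downstream of the enzymes, the retinoic acid hydroxylase Cyp26b1 (chr6:84571414-84593908) was lower in shFto at Pre, with 4.53 and 3.99 TPM against 9.29 and 21.6 TPM in shScram (-1.54, SE 0.30, limma adjusted p = 0.00916), and it was -2.11 without shScram Pre replicate 1 and -0.97 without replicate 2. Zfp703, a retinoic acid responsive gene (chr8:26977325-26981461, with Gm45371 on the other strand), held 9.54 and 52.3 TPM in shScram against 94.7 and 103 TPM in shFto at Pre. Its difference of 2.07 (limma adjusted p = 0.0287) was 0.91 without shScram Pre replicate 1 and 3.24 without replicate 2. Pnpla2, a lipase that also releases retinol from its esters (chr7:141455198-141460743), held 60.5 and 56.4 TPM in shScram against 10.0 and 12.1 TPM in shFto at MCE (-2.31, SE 0.20, limma adjusted p = 1.25e-04). Its difference at Diff was -1.35 (limma adjusted p = 0.00181), and like the adipocyte markers it was lower in shFto at MCE and Diff.

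**Figure D3:**
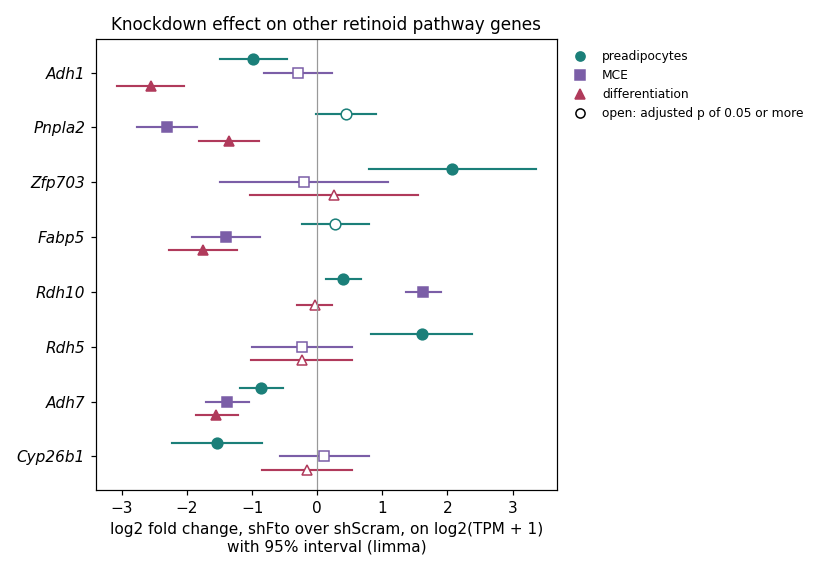
Log2 difference between shFto and shScram on the log2(TPM + 1) scale (horizontal axis) for 8 other retinoid pathway genes at the 3 stages, with 95% intervals from limma and filled points for an adjusted p under 0.05. Adh7 is lower in shFto at each stage (-0.86, -1.38 and -1.55), Rdh10 is 1.63 higher at MCE, and Adh1 stands at -2.56 at Diff.

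Fabp5 (chr3:10012548-10016607), which can carry retinoic acid to PPARδ, is set beside Crabp2 here. At Pre it held 78.6 and 137 TPM in shScram against 139 and 114 TPM in shFto. At MCE it held 129 and 145 TPM in shScram against 53.1 and 49.5 TPM in shFto (-1.40, SE 0.23, limma adjusted p = 0.00341). At Diff it held 194 and 173 TPM in shScram against 53.7 and 53.2 TPM in shFto (-1.76, SE 0.23, limma adjusted p = 8.56e-04). Crabp2 was thus higher and Fabp5 lower in shFto at Diff, while at MCE Fabp5 was lower and Crabp2 was not called. Like most of the adipocyte markers, Fabp5 was lower in shFto at MCE and Diff, and the part of the markers in this result was not tested. As a share of Fabp5, Crabp2 amounted to 1.02% and 1.26% in shScram and 13.3% and 11.5% in shFto at Diff. This ratio was chosen after its values were seen, and no test was made of it. At MCE it was 1.32% and 1.12% in shScram and 2.85% and 4.11% in shFto, and at Pre the lines overlapped, with 3.75% and 1.30% against 2.93% and 2.98%. Dhrs3 as a share of Rdh10, chosen in the same way, was 12.5% and 12.3% in shScram and 119% and 112% in shFto at Pre, 8.31% and 8.32% against 17.7% and 14.0% at MCE, and 26.0% and 24.1% against 36.3% and 32.1% at Diff.

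**Figure D4:**
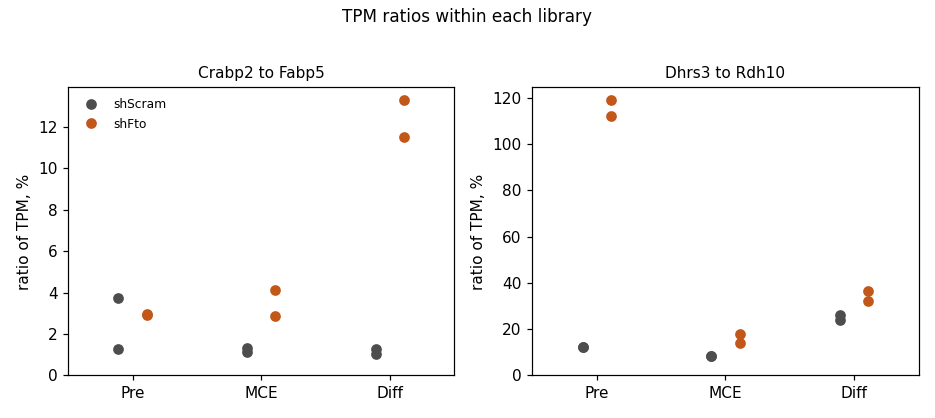
Ratio of TPM within each library, in percent from 0, of Crabp2 to Fabp5 (left) and Dhrs3 to Rdh10 (right) at the 3 stages, with 1 point per library in shScram (grey) and shFto (orange). The ratio of Crabp2 to Fabp5 is 13.3% and 11.5% in shFto at Diff, and that of Dhrs3 to Rdh10 is 119% and 112% in shFto at Pre, the highest points of each panel.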

How the data were processed

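The deposited TPM values were made by the authors with StringTie 2.1.4 on Ensembl genes, from reads trimmed by Trim Galore 0.6.5 and placed on GRCm38 by HISAT2 2.1.0. The study describes libraries from fragmented total RNA with selection of short fragments for rhein-treated cells. It does not say whether the shFto and shScram libraries were made in this way. Use of strand in counting is not given in the sources used here. TPM keeps no read depth, so no counting error or detection limit could be given, and the count model the authors used (DESeq2) was not run. Libraries were grouped by title. Genes at 1 TPM or more in at least 2 libraries were kept, and log2(TPM + 1) was fitted with limma 3.58.1 in R 4.3.3, with 1 mean per group, all 12 libraries, 6 residual degrees of freedom and empirical Bayes moderation with a mean trend. A gene was called at a Benjamini-Hochberg adjusted p under 0.05 over all genes tested. The fit was tested on simulated data. Tables and figures were made with Python 3.11.15 (numpy 2.4.6, pandas 2.3.3, scipy 1.17.1, matplotlib 3.10.9). Gene positions came from GENCODE M21 and promoter sequences from RefSeq.

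All 9 members were named. Of the other pathway genes called in a knockdown contrast, the 8 with the largest absolute difference at any stage and a mean TPM of at least 1 were named, and for each tested member the 2 genes with the highest correlation. Other genes named are examples of their lists, chosen after their values were seen. The members and lists were chosen with earlier results of these data known. Same-numbered libraries were not paired, as their deviations from the group means correlated at -0.29 to 0.172. Alternatives were another pseudocount (0.1), no filter, a mean TPM of at least 5, median-ratio scaling, quantile normalization, only the libraries of the contrast, no trend, robust moderation, a replicate block, a fold threshold and leaving out each library. The rhein-treated and m6A libraries of the study were not analysed here. The list of other retinol binding genes is not reported by itself here.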

Additional observations from a re-analysis of the deposited data

Results flagged for a closer look

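The knockdown effect differed between stages, by limma's test of the difference itself on the log2(TPM + 1) scale, for 1 member and 4 other named genes of the pathway. Over all tested genes, limma called 5.11% in the difference of MCE against Pre and 2.49% in that of Diff against MCE. The 4 other genes were named for a large difference at any stage in these same libraries. That choice favours genes whose effect differs between stages, so their calls are no separate support. For Dhrs3 the knockdown effect was smaller at Diff than at MCE, with a difference of -1.89 (SE 0.20, limma adjusted p = 0.00246). For Rdh10 the effect was larger at MCE than at Pre by 1.23 (SE 0.17, limma adjusted p = 0.00489) and changed by -1.67 from MCE to Diff (SE 0.17, limma adjusted p = 0.00246). The effect on Adh1 changed by -2.27 from MCE to Diff (SE 0.33, limma adjusted p = 0.00896). From Pre to MCE, the effect changed by -1.67 for Fabp5 (SE 0.32, limma adjusted p = 0.0227) and by -2.75 for Pnpla2 (SE 0.29, limma adjusted p = 0.00134).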

How the results depend on the processing

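Of the 22 calls made for the tested members, 13 were kept in every alternative fit that tested the gene and 9 were lost in at least 1. The fold thresholds are left out of this count, and a fit that removes a gene does not count as a loss. With only the libraries of the contrast in the fit, 0 members were called at Pre, 3 at MCE, 0 from Pre to MCE in shScram and 3 in the difference between Diff and MCE. With a mean TPM of at least 5, which removes Crabp2 and Stra6, 0 were called at Diff, 1 in the average, 1 from Pre to MCE in shFto and 2 from MCE to Diff in shFto. With the thresholds of a fold over 2 and an unadjusted p under 0.05, 2 were called at Pre, 1 in the average, 3 from Pre to MCE in shScram, 1 in shFto, 1 in the difference between MCE and Pre and 2 in that between Diff and MCE. Median-ratio scaling called 2 at MCE, and the fit without trend 2 at MCE and 2 in the difference between Diff and MCE. No filter, which tests all 9 members, and quantile normalization each called 1 from Pre to MCE in shFto. Calls over all genes are not given here for the fold thresholds, the scalings, the fit without trend or this step without a filter. Those counts of members are thus not read as a result about the members.

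Without 1 library in turn, the members called ranged from 1 to 3 at Pre, 1 to 3 at MCE, 2 to 3 at Diff and 3 to 5 in the average. Calls over all genes in the same fits ranged from 1169 to 10025, 1215 to 6548, 1639 to 7290 and 5231 to 10765. They ranged from 3 to 6 and from 3 to 4 in the successive steps of shScram, from 1 to 3 and from 3 to 6 in those of shFto, and from 0 to 3 and from 1 to 3 in the differences of MCE against Pre and of Diff against MCE. Over all genes these were 3292 to 10338 and 1605 to 8309, 2548 to 8164 and 2013 to 8136, and 255 to 8378 and 125 to 2730. A fit without 1 library leaves 1 library in that group, so its calls do not measure the spread of that group. The values that changed sign were all uncalled in the fit reported. Leaving out 1 library, Stra6 ranged from -0.02 to 0.10 and Aldh1a1 from -0.32 to 0.91 at Pre, Crabp2 from -0.09 to 0.19 and Aldh1a1 from -0.12 to 0.22 at MCE, and Rara from -0.16 to 0.06 at Diff. In the average Aldh1a1 ranged from -0.22 to 0.19, Rara from -0.01 to 0.36 and Rarg from -0.01 to 0.56. Dhrs3 ranged from -0.13 to 0.12 from Pre to MCE in shFto, Aldh1a1 from -0.85 to 0.38 in the difference of MCE against Pre, and Rara from -0.13 to 0.09 in that of Diff against MCE. Median-ratio scaling gave 0.22 for Dhrs3 and 0.10 for Rarg from Pre to MCE in shFto and 0.04 for Rara in the difference of Diff against MCE, where quantile normalization gave 0.20 for Dhrs3 and 0.04 for Rara. Quantile normalization gave -0.24 for Crabp2 from MCE to Diff in shScram, and a pseudocount of 0.1 gave 0.03 for Aldh1a1 in the average. The causes of these changes were not tested.

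Over all genes, the fit with only the contrast's libraries called 0 genes at Pre (4510 with all libraries), 5913 at MCE (2838) and 6613 at Diff (3391). It called 504 and 6454 in the steps of shScram (6236 and 4023), 7999 and 8684 in those of shFto (4585 and 4256), and 239 and 2694 in the differences between stages (816 and 397). A mean TPM of at least 5 called 2260 at Diff, 2677 from MCE to Diff in shFto and 226 in the difference of Diff against MCE. In that difference a pseudocount of 0.1 called 202, no filter 606 and the replicate block 257. The replicate block changed no count of members called. Depth limits the values near 0 TPM of Rbp4, Crabp1 and Rarb in a way that TPM does not show.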
